A study of Mus musculus with 4 samples.

Results

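The genes that write and remove methyl groups on cytosine in DNA were examined in the mouse testis, across 10 genes chosen by name from the 22073 genes of a table of messenger RNA levels. They are the methyltransferase genes Dnmt1, Dnmt3a and Dnmt3b, their partners Dnmt3l and Uhrf1, the methylcytosine dioxygenase genes Tet1, Tet2 and Tet3, and the DNA glycosylase genes Tdg and Mbd4. Poly(A) RNA of the right testis was sequenced from 2 hemicastrated mice, whose left testis had been taken out before puberty, and from 2 control mice given a sham operation, with 4 libraries in all. All were males of the KM strain, no genetic change is named, and the right testis was collected and frozen at maturity. The series design gives 2 mice in each group while the protocol text speaks of 3. The series title also names DNA methylation, which was not analysed here.

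Methylation of CpG dinucleotides is copied after replication by Dnmt1, which Uhrf1 brings to newly made, hemimethylated DNA. New methylation is set by enzymes that include Dnmt3a and Dnmt3b, with Dnmt3l as a partner that lacks catalytic activity of its own. The Tet enzymes oxidise methylcytosine, Tdg cuts out the more oxidised forms, and Mbd4 removes thymine or uracil mispaired with guanine at CpG sites, after which base excision repair restores cytosine. In the mouse male germ line most new methylation is laid down in fetal prospermatogonia, and in the adult, dividing spermatogonia copy it at each division.

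The deposited table gives 1 value per gene, although Dnmt1 and Dnmt3l have several annotated start sites, and mouse Dnmt1 and Dnmt3l are both known for start sites that differ between male and female germ cells. The start windows below are shown because a gene value cannot say which of them was in use. Each runs from 250 bases before to 50 bases after a RefSeq start (build GRCm38.p6), is written in the direction of transcription, and has its CpG pairs in capitals. The Dnmt1 starts on the minus strand of chromosome 9 differ widely, with 2 CpG at chr9:20959839-20960138 and 33 CpG at chr9:20952574-20952873. A window between these starts, at chr9:20952930-20953229, held 12. The Dnmt3l starts on the plus strand of chromosome 10 are all poor in CpG, with 6, 4 and 3 at chr10:78042037-78042336, chr10:78049592-78049891 and chr10:78055085-78055384.
Dnmt1 first start: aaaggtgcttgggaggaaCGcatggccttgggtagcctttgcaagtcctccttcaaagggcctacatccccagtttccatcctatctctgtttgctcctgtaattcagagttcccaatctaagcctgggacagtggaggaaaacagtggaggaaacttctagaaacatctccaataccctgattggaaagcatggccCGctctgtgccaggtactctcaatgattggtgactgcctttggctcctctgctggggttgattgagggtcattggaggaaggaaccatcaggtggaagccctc
Dnmt1 last start: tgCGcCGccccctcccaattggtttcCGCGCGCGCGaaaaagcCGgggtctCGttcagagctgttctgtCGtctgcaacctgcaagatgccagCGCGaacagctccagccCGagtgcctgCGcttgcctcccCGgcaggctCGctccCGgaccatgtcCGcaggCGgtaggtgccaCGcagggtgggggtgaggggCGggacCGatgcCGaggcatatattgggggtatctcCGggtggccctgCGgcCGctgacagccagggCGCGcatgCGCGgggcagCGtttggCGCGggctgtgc
Dnmt3l first start: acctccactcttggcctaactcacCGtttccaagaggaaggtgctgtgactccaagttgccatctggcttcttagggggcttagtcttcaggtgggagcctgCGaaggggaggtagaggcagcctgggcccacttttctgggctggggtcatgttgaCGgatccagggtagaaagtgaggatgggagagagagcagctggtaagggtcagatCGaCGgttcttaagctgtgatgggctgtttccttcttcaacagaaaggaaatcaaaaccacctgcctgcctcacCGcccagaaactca
Dnmt3l second start: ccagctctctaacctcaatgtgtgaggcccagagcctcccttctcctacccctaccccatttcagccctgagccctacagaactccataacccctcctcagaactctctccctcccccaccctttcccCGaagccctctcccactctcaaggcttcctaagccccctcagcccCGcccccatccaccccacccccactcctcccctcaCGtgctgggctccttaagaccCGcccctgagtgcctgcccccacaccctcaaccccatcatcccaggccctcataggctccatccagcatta
Dnmt3l last start: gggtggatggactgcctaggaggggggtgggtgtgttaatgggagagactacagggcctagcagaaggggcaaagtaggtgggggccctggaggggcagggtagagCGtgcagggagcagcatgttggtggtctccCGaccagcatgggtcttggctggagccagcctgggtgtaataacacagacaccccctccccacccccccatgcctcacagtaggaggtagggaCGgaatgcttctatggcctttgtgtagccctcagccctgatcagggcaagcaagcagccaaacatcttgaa

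All 10 genes matched the RefSeq table, with 17 start windows between them. Over all 32851 windows the median was 7 CpG in a window of 300 bases. The windows of Dnmt3l lay under this median, whereas those of Dnmt3b, Tdg and Mbd4 held 30, 26 and 25 CpG and the single Tet2 window held 57, more than in 99.85% of all windows. The windows of Tet1 and Tet3 held 17 and 22. A GC box, read as GGGCGG on either strand, stood in 13 of the 17 windows and in 35.7% of all windows; windows of 1 gene can overlap, as a pair of the Dnmt3a windows did. The cyclic AMP response element TGACGTCA stood in the Tdg window and in no other window of the 10 genes, against 1.79% of all windows. The E2F-type letters TTTCCCGC stood in none of the 17, against 1.07% of all windows. These matches describe letters only, and no start site was measured.

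Values are FPKM (fragments scaled to transcript length and to mapped fragments), so levels of different genes can be set side by side. Read depth is unknown, so precision rests on how far replicate libraries differ. Markers of testis germ cells were high in all 4 libraries: the list of elongating spermatids summed to 26899 and 26925 FPKM in hemicastrated libraries and to 24801 and 25887 FPKM in control libraries. The groups stood apart in markers of the duct beside the testis. The epididymis and efferent duct list summed to 15.6 and 18.6 FPKM in hemicastrated libraries and to 798 and 1134 FPKM in control libraries. Of its 16 genes, 9 were listed at 0 in both hemicastrated libraries and 4 in both control libraries. Both counts include 3 genes at 0 in all 4 libraries.

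The levels of the 10 enzymes spanned a wide range. Uhrf1 was the highest of the 10, with 11.2 and 8.81 FPKM in hemicastrated libraries and 11.9 and 10.4 FPKM in control libraries. Its mean exceeded that of 78.7% of all genes in the table. Tet1 was the lowest, with 0.0539 and 0.0498 FPKM in hemicastrated libraries and 0.0307 and 0.0405 FPKM in control libraries, and its mean exceeded that of 23.5% of genes.

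Between those ends the order by mean FPKM was Dnmt1, Dnmt3l, Mbd4, Dnmt3a, Dnmt3b, Tet2, Tdg and Tet3. Over the 4 libraries the ranges did not overlap between Uhrf1 and Dnmt1, between Dnmt3l and Mbd4, between Dnmt3a and Dnmt3b, or between Tet3 and Tet1. The ranges of the other neighbours overlapped. Within libraries, Dnmt3b was above Tet2 in 4 of 4, while the order of Dnmt1 over Dnmt3l, Mbd4 over Dnmt3a, Tet2 over Tdg and Tdg over Tet3 held in 3 of 4 each. Summed FPKM of Dnmt1, Dnmt3a and Dnmt3b was 7.04 and 6.72 in hemicastrated libraries and 7.15 and 6.37 in control libraries. Summed FPKM of the 3 Tet genes was 0.669 and 0.567 in hemicastrated libraries and 0.893 and 0.565 in control libraries.

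**Figure D1:**
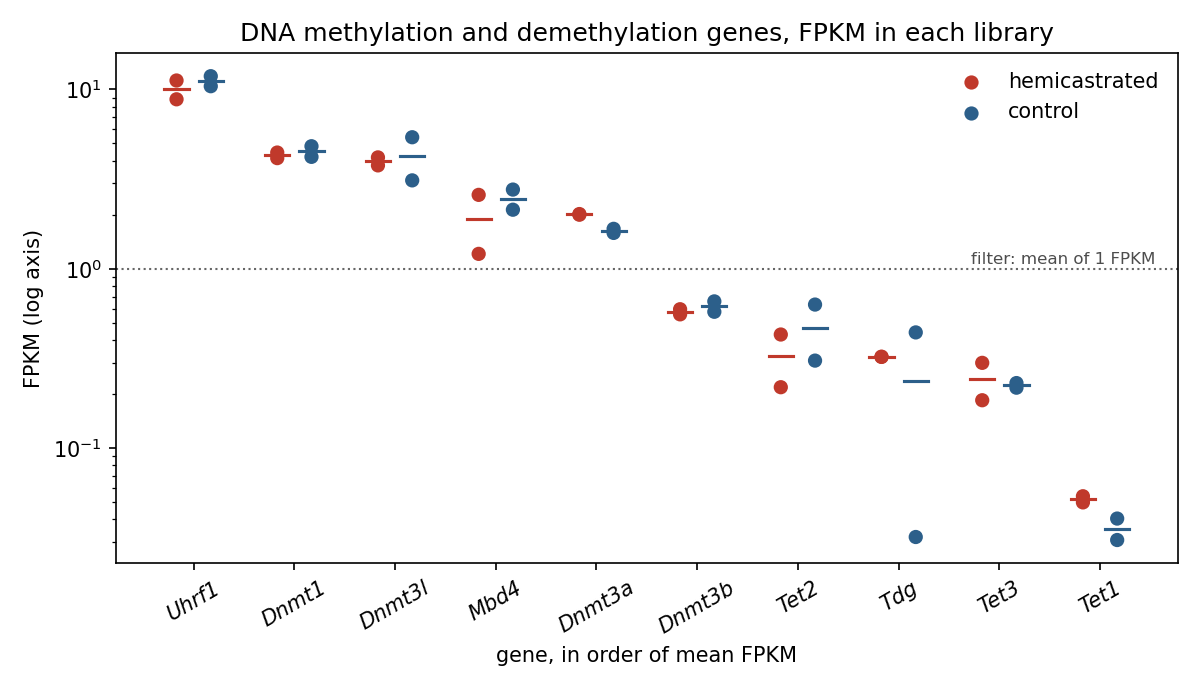
FPKM of the 10 genes in each library on a log axis, hemicastrated left of control; points are single libraries, short lines are group means (n = 2 each) and the dotted line marks the filter of 1 FPKM. The genes run from Uhrf1, between 8.81 and 11.9 FPKM, down to Tet1, under 0.06 FPKM, and the groups overlap for all but Dnmt3a and Tet1.

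None of the genes of this pathway that could be tested was called different after hemicastration. The test was limma on log2(FPKM + 1) with Benjamini-Hochberg adjustment over the 11343 genes that averaged 1 FPKM or more. Of the 10 genes, 5 passed this filter (Dnmt1, Dnmt3a, Dnmt3l, Uhrf1 and Mbd4). None of these 5 was called at an adjusted p under 0.05, and 0 of 5 had an unadjusted p under 0.05. Over all tested genes, 1.3% were called in either direction (135 lower and 12 higher) and 10.5% had an unadjusted p under 0.05. The median log2 fold change, hemicastrated minus control, was -0.06 for the 5 genes and -0.03 for all tested genes. With so few members tested, 0 calls does not set them apart from that background. Single values were also compared by an exact permutation test of 2 libraries against 2, two-sided, whose smallest possible p is 0.333. Adjusted over the 10 genes, the smallest of these was 0.952.

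Dnmt1, the maintenance methyltransferase, had close values in all 4 libraries. It lies on chromosome 9 at 20907209 to 20959888 on the minus strand (ENSMUSG00000004099, GRCm38). Its level was 4.45 and 4.14 FPKM in hemicastrated libraries and 4.82 and 4.21 FPKM in control libraries, and the groups overlapped. The log2 fold change was -0.06 (SE 0.13, 95% interval -0.37 to 0.26, limma adjusted p = 0.920). The interval corresponds to a factor of 0.771 to 1.20 on the FPKM + 1 scale.

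Uhrf1, the reader of hemimethylated CpG that recruits Dnmt1, lies on chromosome 17 at 56303321 to 56323486 (ENSMUSG00000001228). Its lowest value was in hemicastrated 2 and its highest in control 1, and the groups overlapped. It averaged 10.02 ± 1.70 FPKM in hemicastrated mice and 11.1 ± 1.01 FPKM in control mice (SD, n = 2 each). The log2 fold change was -0.15 (95% interval -0.50 to 0.20, limma adjusted p = 0.788), -0.30 without hemicastrated 1 and 0.01 without hemicastrated 2. A processed pseudogene, Gm5648, has 98.3% identity to 1590 bases of the Uhrf1 transcript, so reads could be split between them.

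Dnmt3a, which methylates unmethylated CpG, had the smallest p of the tested members. It lies on chromosome 12 at 3806007 to 3914443 (ENSMUSG00000020661), and the antisense gene Dnmt3aos overlaps it. Its level was 2.002 and 2.02 FPKM in hemicastrated libraries against 1.67 and 1.58 FPKM in control libraries. Both hemicastrated libraries were above both control libraries. The ratio of group means was 1.24, and the log2 fold change was 0.20 (SE 0.13, 95% interval -0.13 to 0.52, limma adjusted p = 0.681; exact permutation p = 0.333, the smallest possible). With each library left out the log2 fold change ran from 0.17 to 0.22, and its sign could not change because the groups did not overlap. Its spread within groups was small, since 97.4% of the 2923 genes of like level (within 0.5 of its mean on the log2 scale) had a larger one. Of the 10 genes, 2 had groups that did not overlap, Dnmt3a and Tet1, and such groups were common, at 41.2% of tested genes. Use of strand in the counting is not stated. Without it, Dnmt3a and Dnmt3aos reads cannot be told apart, and the same holds for the other antisense pairs named here.

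The tested genes nearest to Dnmt3a, by Euclidean distance over the 4 libraries in log2(FPKM + 1), were Minar2 (distance 0.11), Klf16 (0.11) and Ada (0.13). Ada, the adenosine deaminase gene, was at 1.99 and 1.93 FPKM in hemicastrated libraries and at 1.52 and 1.44 FPKM in control libraries. This likeness is a description over 4 libraries.

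Dnmt3b, another methyltransferase for new sites, was under the filter and was not tested in the fit above. It lies on chromosome 2 at 153649450 to 153687730 (ENSMUSG00000027478) and has an antisense partner, Dnmt3bos. Its level was 0.595 and 0.557 FPKM in hemicastrated libraries and 0.658 and 0.576 FPKM in control libraries. The groups overlapped, and the ratio of group means was 0.934 (exact permutation p = 0.667).

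Dnmt3l, the inactive partner of Dnmt3a and Dnmt3b, was the most abundant of the Dnmt3 genes examined in every library. It lies on chromosome 10 at 78041947 to 78063622 (ENSMUSG00000000730), where the opposite-strand gene Aire overlaps it; Aire was listed at 0 in all 4 libraries. Its level was 4.18 and 3.77 FPKM in hemicastrated libraries and 5.41 and 3.11 FPKM in control libraries. The control libraries held both the highest and the lowest value, so the hemicastrated values lay inside the control range. The log2 fold change was -0.05 (SE 0.22, 95% interval -0.58 to 0.49, limma adjusted p = 0.966). It was 0.27 without control 1 and -0.37 without control 2, and 7.56% of the genes of like level had a larger spread within groups.

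**Figure D2:**
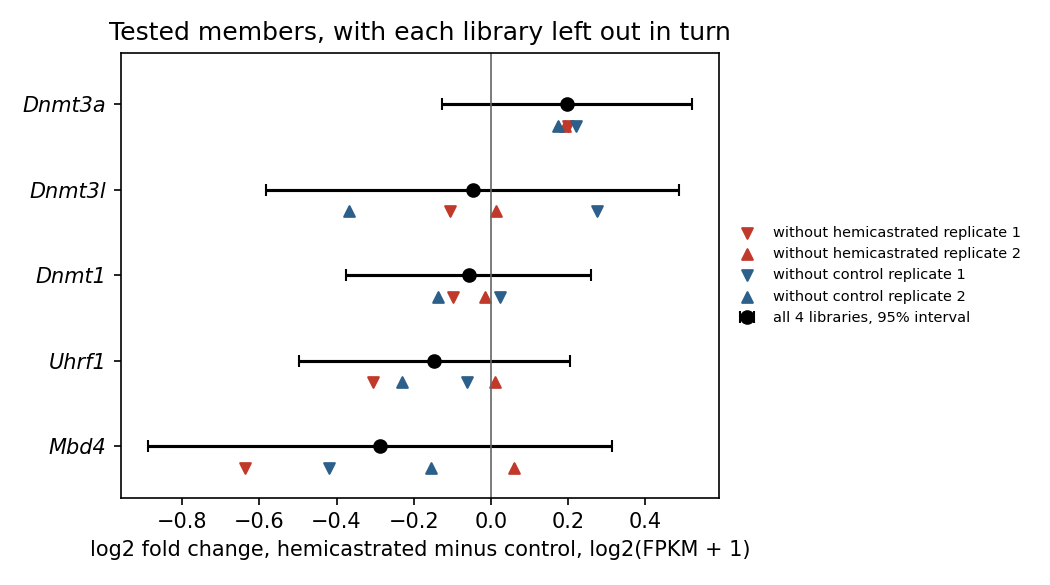
Log2 fold change, hemicastrated minus control, as fitted by limma for the 5 tested genes; black points with bars are the fit to all 4 libraries with its 95% interval, and triangles are fits without a library. All intervals include 0, the triangles of Dnmt3a stay between 0.17 and 0.22, and those of Mbd4 run from -0.64 to 0.06.

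The Tet genes were all under the filter, and the level of a low gene in FPKM without read counts has no known error beyond the replicates. Tet2, a gene often mutated in human blood cancers, lies on chromosome 3 at 133463679 to 133545139 (ENSMUSG00000040943), overlaps the antisense gene Gm42567 and was at 0.430 and 0.219 FPKM in hemicastrated libraries and at 0.632 and 0.308 FPKM in control libraries. Libraries of 1 group differed by a factor of 1.97 among hemicastrated mice and 2.05 among control mice, and the groups overlapped. Tet3, which oxidises the paternal genome in the mouse zygote, lies on chromosome 6 at 83362373 to 83459084 (ENSMUSG00000034832), overlaps B230319C09Rik on the opposite strand and was at 0.185 and 0.299 FPKM in hemicastrated libraries and at 0.230 and 0.217 FPKM in control libraries. The hemicastrated values enclosed the control values.

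Tet1, the founding member of the family, lies on chromosome 10 at 62804570 to 62908996 (ENSMUSG00000047146) and was the only Tet gene whose groups did not overlap. Both hemicastrated values given above exceeded both control values. The ratio of group means was 1.46 (exact permutation p = 0.333, the smallest possible), 1.69 without control 2 and 1.28 without control 1. Of the 18587 genes above 0 in any library, 39.3% had groups that did not overlap. In a fit with no filter on low values, limma adjusted p was 0.863 for Tet1, 0.784 for Tet2, 0.947 for Tet3 and 0.914 for Dnmt3b.

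Of the glycosylase genes, Mbd4 was tested and Tdg was not. Mbd4, on chromosome 6 at 115840697 to 115853371 (ENSMUSG00000030322), was at 2.58 and 1.21 FPKM in hemicastrated libraries and at 2.13 and 2.77 FPKM in control libraries. Hemicastrated 2 stood below the other libraries, which lay close together. The log2 fold change was -0.29 (SE 0.25, 95% interval -0.89 to 0.31, limma adjusted p = 0.752). It was 0.06 without hemicastrated 2 and -0.64 without hemicastrated 1, with a limma adjusted p of 0.313 in that fit. An antisense gene, Gm44206, overlaps Mbd4.

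Tdg had 1 library far from the others. It lies on chromosome 10 at 82629828 to 82650799 (ENSMUSG00000034674) and was at 0.322 and 0.323 FPKM in hemicastrated libraries and at 0.442 and 0.0319 FPKM in control libraries. The low value was that of control 2, and the control values enclosed the hemicastrated ones. The ratio of group means was 1.36, but 0.731 without control 2 and 10.1 without control 1. In the fit with no filter the limma adjusted p was 0.855. The pseudogene Tdg-ps has 98.7% identity to 2968 of the 3502 bases of the Tdg transcript, and Gm5597 and Gm9855 are 99.3% and 99.2% identical over 1193 and 1194 bases. The gene Glt8d2 overlaps its end on the opposite strand and was at 1.79 and 1.52 FPKM in hemicastrated libraries and at 1.73 and 1.88 FPKM in control libraries. The value of Tdg is therefore uncertain, and the sources used here do not give how shared reads were counted.

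Ratios between members within a library do not depend on a scale factor between libraries. Of 7 such ratios, that of Dnmt3a to Dnmt3b was the one whose groups did not overlap, at 3.37 and 3.63 in hemicastrated libraries against 2.54 and 2.75 in control libraries. The difference was 0.40 on the log2 scale, and its exact permutation p of 0.333 is the smallest possible, so none of the 7 can reach the threshold (adjusted over the 7, smallest p = 0.778). With each library left out the difference was between 0.34 and 0.46, and its sign could not change because the groups did not overlap. Dnmt3a by itself had groups that did not overlap, as for 41.2% of tested genes, and Dnmt3b was under the filter. Uhrf1 over Dnmt1 was 2.52 and 2.13 in hemicastrated libraries and 2.46 and 2.48 in control libraries. Dnmt3l over Dnmt3a was 2.09 and 1.87 in hemicastrated libraries and 3.24 and 1.96 in control libraries. The hemicastrated values of both ratios overlapped the control values.

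**Figure D3:**
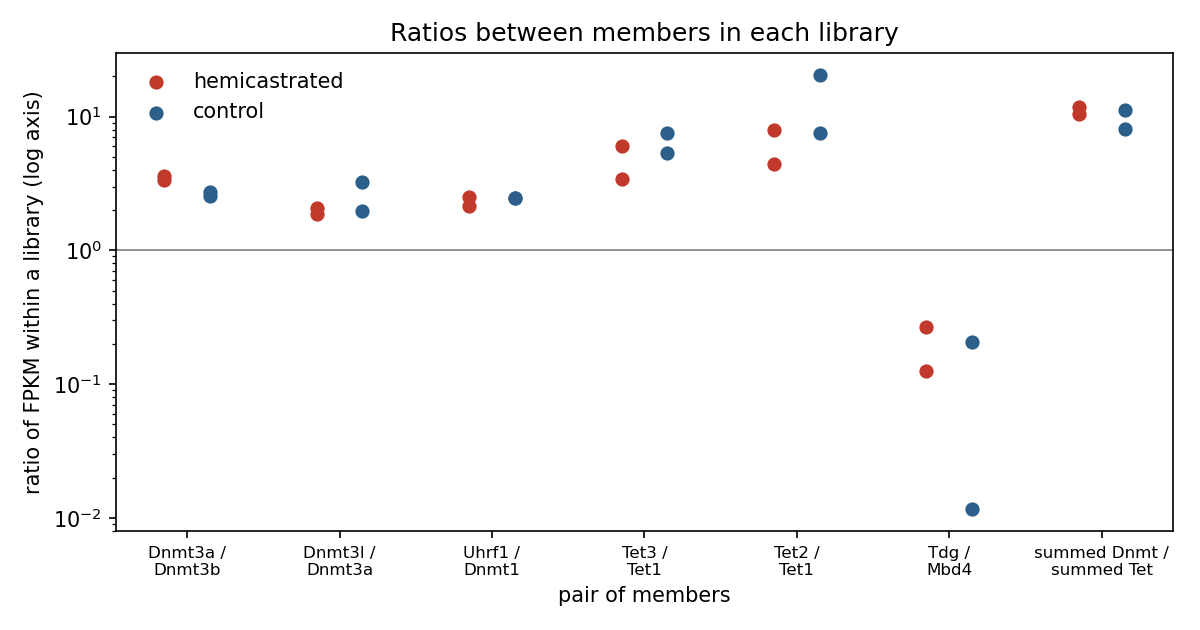
Ratio of FPKM between pairs of genes within each library on a log axis, hemicastrated left of control, with 1 point per library. The groups are apart for Dnmt3a over Dnmt3b alone, and Tdg over Mbd4 in control 2, at 0.0115, is far under the other libraries, which lie between 0.125 and 0.267.

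The sum of Dnmt1, Dnmt3a and Dnmt3b over that of the Tet genes was 10.5 and 11.8 in hemicastrated libraries and 8.01 and 11.3 in control libraries, and the groups overlapped. Tet2 over Tet1 was 7.98 and 4.39 in hemicastrated libraries and 20.6 and 7.60 in control libraries. Tet3 over Tet1 was 3.43 and 6.001 in hemicastrated libraries and 7.50 and 5.37 in control libraries. Tet1 was the lowest of the 3 in every library, while Tet3 exceeded Tet2 in hemicastrated 2 and Tet2 exceeded Tet3 in the other libraries.

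Genes that work beside these enzymes were not called either. Of 77 names in 6 lists of the pathway, 57 were tested, 0 were called in either direction over all tested genes, and 2 had an unadjusted p under 0.05 (limma). The median log2 fold change of the 57 was -0.06, and 54 lay within 0.5 of 0. Lower calls made up 1.19% and higher calls 0.106% of all tested genes.

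Genes that recruit or assist the methyltransferases had a median log2 fold change of -0.07 over 15 tested, with none called. Of the 20 names on this list 18 were found, and Dnmt3c and Gm14490 were not. Trim28, the corepressor of zinc finger proteins that hold imprints, was at 121 and 123 FPKM in hemicastrated libraries and at 137 and 131 FPKM in control libraries (log2 fold change -0.14, limma adjusted p = 0.604). Suv39h2, a histone methyltransferase of heterochromatin with high expression in the mouse testis, was at 9.69 and 9.11 FPKM in hemicastrated libraries and at 7.67 and 8.65 FPKM in control libraries (0.18, limma adjusted p = 0.662). The groups of both genes did not overlap, as for 41.2% of all tested genes, and both were picked for the smallest p of their list. In the list for new methylation guided by piRNA, 0 of 7 tested genes were called. Tex15, needed in mice for transposon silencing in male germ cells, was at 6.68 and 5.31 FPKM in hemicastrated libraries and at 4.505 and 4.96 FPKM in control libraries, with a log2 fold change of 0.28 (limma adjusted p = 0.583), and the Piwi gene Piwil2 had one of -0.15 (limma adjusted p = 0.694). Dppa3, which guards methylation in the mouse egg, was listed at 0 in both control libraries and stood at 0.102 and 0.141 FPKM in hemicastrated libraries. It was named after its values were seen, and 39.3% of genes above 0 in any library had groups that did not overlap. The pseudogene Dppa3-ps has 98.2% identity to 451 of the 833 bases of the Dppa3 transcript, so the value of Dppa3 is uncertain.

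Among readers of methylated CpG, 0 of 5 tested genes were called, with log2 fold changes of -0.18 for Mbd1 and 0.09 for Mbd6. Of the base excision genes, 0 of 10 were called. Polb, the repair polymerase, was at 136 and 125 FPKM in hemicastrated libraries and 118 and 120 FPKM in control libraries (0.13, limma adjusted p = 0.661). Apex1, the endonuclease for abasic sites, had a log2 fold change of -0.16 (limma adjusted p = 0.653), and the opposite-strand gene Pip4p1 shares its sequence. The repair polymerase stood far above both glycosylases in FPKM in every library.

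The methyl donor cycle held the largest differences among the pathway lists, though 0 of its 13 tested genes were called. Shmt2, the mitochondrial serine hydroxymethyltransferase, was at 2.201 and 2.94 FPKM in hemicastrated libraries and at 3.92 and 4.802 FPKM in control libraries. Its groups did not overlap, again as for 41.2% of tested genes, and its log2 fold change was -0.59 (SE 0.17, unadjusted p = 0.0109, limma adjusted p = 0.261). Bhmt, which remethylates homocysteine, was at 7.75 and 7.20 FPKM in hemicastrated libraries and at 20.1 and 10.5 FPKM in control libraries (-0.88, SE 0.27, limma adjusted p = 0.316). Without control 1 the log2 fold change of Bhmt was -0.44, and without control 2 it was -1.31. Bhmt and Gm5096 are 99.4% identical over 1869 bases, so its value is uncertain. Tyms, the thymidylate synthase gene, named after its values were seen, was at 1.51 and 0.223 FPKM in hemicastrated libraries and at 2.23 and 1.32 FPKM in control libraries. Its groups overlapped, with a log2 fold change of -0.64 (limma adjusted p = 0.599).

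Ahcy, which clears a product of methyl transfer, was under the filter, at 0.103 and 0.136 FPKM in hemicastrated libraries and at 0.0558 and 0.111 FPKM in control libraries. Its near-identical copy Gm4737 (99.7% identity over 2083 bases), named after its values were seen, was at 4.77 and 5.39 FPKM in hemicastrated libraries and at 5.99 and 5.46 FPKM in control libraries. Reads could be assigned to either. In the list of Tet partners and 2-oxoglutarate supply, 0 of 7 tested genes were called, with log2 fold changes of -0.19 for Idh1 and -0.25 for Idh2, the isocitrate dehydrogenases that make 2-oxoglutarate (limma adjusted p of 0.650 and 0.657).

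**Figure D4:**
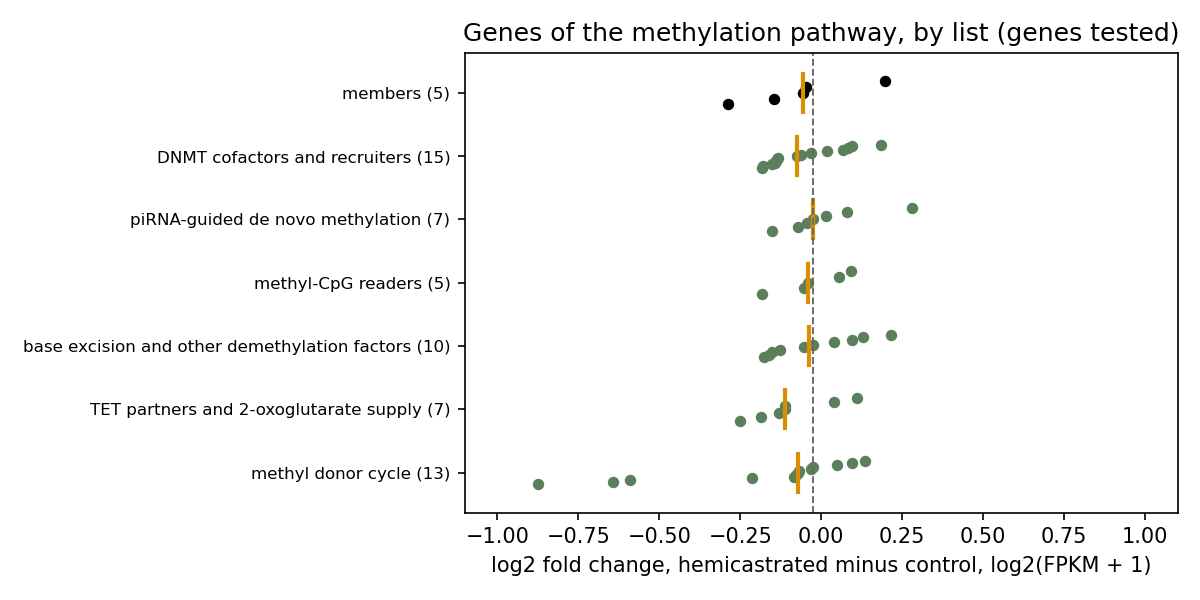
Log2 fold change, hemicastrated minus control, of the tested genes of the 10 enzymes and of 6 pathway lists; points are genes, orange bars list medians and the dashed line the median of all tested genes, -0.03. All list medians lie between -0.11 and -0.03, and the widest list is the methyl donor cycle, from -0.88 for Bhmt to 0.13 for Mat2a.

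Markers of spermatogonia and early spermatocytes, in which several of these enzymes are known to be expressed, were not called. Whole testis was measured, in which fewer cells of a type and less RNA per cell cannot be told apart. In the list of undifferentiated spermatogonia 0 of 3 tested genes were called, with Id4 at 9.21 and 8.96 FPKM in hemicastrated libraries and 9.80 and 9.84 FPKM in control libraries. The summed FPKM of that list was 15.4 and 15.9 in hemicastrated libraries and 17.3 and 15.6 in control libraries. Among differentiating spermatogonia 0 of 10 were called, with summed FPKM of 306 and 314 in hemicastrated libraries and 319 and 301 in control libraries. Among early meiotic prophase genes 0 of 14 were called (median log2 fold change 0.16), while 7 of the 14 had an unadjusted p under 0.05, 6 of them positive, against 10.5% of all tested genes. The early meiotic list summed to 581 and 497 FPKM in hemicastrated libraries and to 448 and 449 FPKM in control libraries, which did not overlap. Among proliferation genes 0 of 12 were called (median 0.08), with sums of 221 and 218 FPKM in hemicastrated libraries and 203 and 205 FPKM in control libraries. Without hemicastrated 2, 1 gene each was called in the differentiating spermatogonia and early meiotic lists.

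Markers of duct epithelium and of smooth muscle did differ between the groups. In the epididymis and efferent duct list 5 genes were called lower and none higher, with the sums given above. Genes near 0 in hemicastrated libraries passed the filter through the control libraries, so the count of 7 tested genes is partly set by the filter. With no filter 4 were called, and the median log2 fold change was -0.26, against -3.25 with it. In the peritubular and smooth muscle list 5 of 9 tested genes were lower, with summed FPKM of 234 and 263 in hemicastrated libraries and 355 and 314 in control libraries; the count was 2 without control 1 and 3 without control 2. The lists of pachytene spermatocytes, round spermatids, Sertoli, Leydig, macrophage and endothelial genes had 0 calls.

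Sums of other lists were higher in both hemicastrated libraries than in both control libraries. The round spermatid list summed to 1274 and 1313 FPKM in hemicastrated libraries and to 1160 and 1152 FPKM in control libraries, with 11 of 12 tested genes positive and 4 at an unadjusted p under 0.05. The Sertoli list summed to 626 and 581 FPKM in hemicastrated libraries and to 503 and 521 FPKM in control libraries. Of its 9 tested genes 6 were positive, with the largest log2 fold changes for Cst12 (0.73) and Cst9 (0.67). Cst12 was at 107 and 109 FPKM in hemicastrated libraries and at 56.3 and 74.5 FPKM in control libraries. Cst9 was at 110 and 112 FPKM in hemicastrated libraries and at 62.8 and 76.7 FPKM in control libraries. Most of the gap between the Sertoli sums came from these genes. Clu, the most abundant, had one of -0.03. The Leydig list summed to 1936 and 1830 FPKM in hemicastrated libraries and to 1668 and 1560 FPKM in control libraries. Most of this sum was Insl3, at 1609 and 1484 FPKM in hemicastrated libraries and 1272 and 1232 FPKM in control libraries. Of the 9 tested Leydig genes 4 were positive, and their median log2 fold change was -0.007. Dnmt3a, Tet1 and the ratio of Dnmt3a to Dnmt3b were higher, and Shmt2 and Bhmt lower, in libraries where duct and smooth muscle markers were low. Groups did not overlap for any of these, as for 41.2% of tested genes. Each therefore had to follow any marker that separates the groups. The early meiotic, proliferation, elongating and round spermatid, Sertoli and Leydig sums were high in the hemicastrated libraries. Such sums follow the most abundant genes of a list. In the elongating spermatid list 6 of 12 tested genes were positive, with a median log2 fold change of -0.02. The part of these cells in the levels of the 10 enzymes was not tested. Duct and smooth muscle markers split the 4 libraries in the same way as hemicastration, so these libraries cannot tell them apart.

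**Figure D5:**
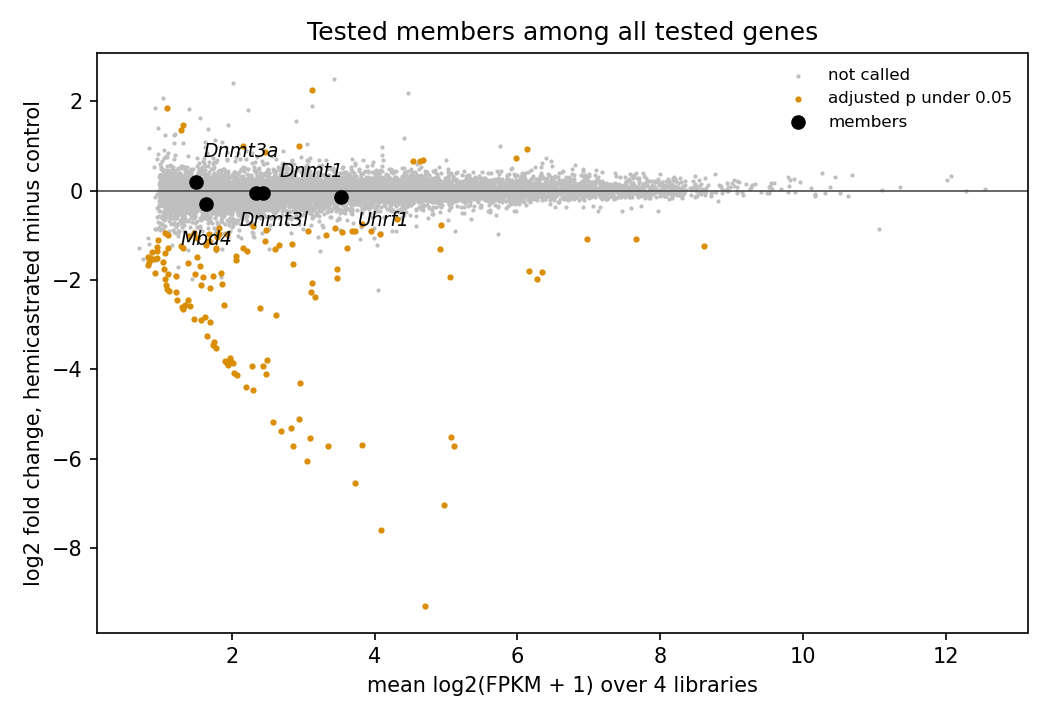
Log2 fold change, hemicastrated minus control, against mean log2(FPKM + 1) for the 11343 tested genes, with called genes in orange and the 5 tested enzymes as labelled black points. The 5 points lie between -0.29 and 0.20, within the grey band of genes that were not called.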

How the data were processed

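Messenger RNA of 4 libraries was analysed, 2 hemicastrated and 2 control, grouped by the labels. Values were FPKM as deposited by the authors, for each gene in each library. TopHat2 2.0.11, Cufflinks 2.2.1 and GRCm38 are listed, without roles, per the submitters' processing notes. The labels' protocol names no strand step, so it is not known whether reads of antisense genes were told apart. The smallest values above 0 reach 2.71e-206 or less in each library, so reads and depth could not be recovered. Symbols and positions came from GENCODE M21 (GRCm38), which named 21806 of 22073 genes, and start windows from RefSeq (GRCm38.p6). The labels' protocol names 4 individuals, so each library was taken as 1 mouse.

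FPKM plus a pseudocount of 1 was put on the log2 scale, and genes averaging 1 FPKM or more were fitted with limma 3.58.1 in R 4.3.3 (trend on mean expression, no covariate, two-sided, Benjamini-Hochberg adjustment; called at an adjusted p under 0.05). This scale understates changes of low genes. The script was tested on simulated data. Exact permutation tests used scipy 1.17.1, and copies of at least 95% identity over 200 bases were sought with blastn. Alternatives were a pseudocount of 0.1, no filter, a mean of at least 5 FPKM, rescaling to TPM, quantile normalization, limma without trend or with robust hyperparameters, a replicate block and each library left out.

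The members and lists were chosen with earlier results of these data known. All 10 members were named, and from each pathway list the 2 tested genes with the smallest p. From the cell marker lists the rule takes up to 3 genes of highest mean. They are given here as counts and sums, with Id4, Cst9, Cst12 and Insl3 as examples. Dppa3, Ahcy, Mat2a and Tyms were named after their values were seen.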

Additional observations from a re-analysis of the deposited data

How the results depend on the processing

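None of the 5 tested members was past the threshold in any alternative that tested it (56 values over 12 alternatives, adjusted p 0.313 to 0.993; with a mean of at least 5 FPKM only Uhrf1 was tested), nor was any pathway gene. Small differences changed sign. Under quantile normalization, which moved the median of all tested genes to 0.02, the log2 fold change was 0.010 for Dnmt1 and 0.032 for Dnmt3l. With each library left out in turn it ran from -0.14 to 0.023 for Dnmt1, -0.37 to 0.27 for Dnmt3l, -0.30 to 0.012 for Uhrf1, -0.64 to 0.061 for Mbd4 and -0.044 to 0.225 for Mbd6. The log2 difference of ratios ran from -0.72 to 0.0084 for Dnmt3l over Dnmt3a, -0.21 to 0.032 for Uhrf1 over Dnmt1, -0.18 to 3.98 for Tdg over Mbd4 and -0.013 to 0.48 for the summed Dnmt over the summed Tet genes. The log2 fold change of Dnmt3a ran from 0.17 to 0.30 in the 11 alternatives that tested it. Its groups did not overlap, so the sign could not change with another pseudocount or with a library left out. The fits with no filter, without trend, with robust hyperparameters and with the replicate block keep the main value by construction. Rescaling to TPM raised all values while the pseudocount stayed at 1, and it gave 0.25. A pseudocount of 0.1 gave 0.29 and quantile normalization 0.30.

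Over all tested genes, 63 were lower and 7 higher with a mean of at least 5 FPKM, where fewer genes are tested, and 3 were higher with no filter. With a library left out, 78 to 156 were lower and 0 to 26 higher; the extremes were without control 2 and without hemicastrated 2. The replicate block called 167 lower and 30 higher genes and no member. The Sertoli list, with 0 called, had 1 with robust hyperparameters and 2 with the block. Same-numbered libraries deviated together with a correlation of 0.01 over the tested genes. With 2 libraries per group this cannot show whether they share more than a number. Without read counts, genes under 1 FPKM such as the Tet genes have no stated precision.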
